A study of Rattus norvegicus with 6 samples.

Results

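The 10 genes described here are skeletal muscle genes, grouped as fast but not all confined to fast-twitch fibres, measured in the hippocampus of rats. They were chosen by name, and their probes were found by the transcript accession that each array feature carries. The 10 genes (Myl11, Myh1, Myh2, Cox6a2, Acta1, Ckm, Tnnt3, Tnni2, Atp2a1 and Actn3) had 11 probes, out of 30367 probes and 15168 genes that could be named in the same way. AD rats were male SD (Sprague Dawley) rats that had received Aβ1-42 oligomers, an aggregated form of the amyloid peptide, into the cerebral ventricles (3 arrays), and Sham rats of the same sex and strain had received the vehicle (3 arrays). The labels name no transgene or deletion in either group. The model rests on an injected peptide, and the rats were adults, with no age in weeks given in the sources used here. Total RNA from hippocampal tissue was labelled with Cy3 and hybridised to a single-colour Agilent rat array, 1 array per tissue sample. The labels do not say from which animal each tissue came, so the p-values cover only the spread among these tissue pieces, which may be technical in part.

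A fast-twitch fibre contracts when calcium leaves the sarcoplasmic reticulum and binds troponin on the actin filament, which lets myosin heads pull the filaments past each other. Thick filaments are built from myosin heavy and light chains, thin filaments from actin, tropomyosin and the troponin subunits, and Z-discs hold the thin filaments in register. Fibres of the fast type carry their own isoforms of these proteins, pump calcium back with Atp2a1 and keep ATP up with the muscle creatine kinase Ckm. Hippocampal neurons and glia use other isoforms of the same families, such as Actb, Actg1, Myh10, Ckb and Atp2a2. In bulk tissue, fewer cells of a type cannot be told apart from less RNA per cell.

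Throughout, a level is the log2 processed signal of a probe minus the 75th percentile of the same array, so that 0 is a signal at that percentile. Group differences were taken for each probe by itself. The scanner software marks spots that stand well above background, and the 22768 probes so marked on 3 or more of the 6 arrays were tested. A probe was called when its limma p, adjusted by the Benjamini-Hochberg method over all tested probes, was under 0.05.

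The arrays differed little in the share of probes well above background, which was 71.8% to 79.7% on AD arrays and 70.7% to 75.4% on Sham arrays, and was highest on AD replicate 3. The signal at the 75th percentile was 795 to 932 on AD arrays and 429 to 755 on Sham arrays, with the lowest value on Sham replicate 3, and no probe was saturated. All 8 genes that mark hippocampal tissue, among them Camk2a, Prox1 and Snap25, were well above background on all 6 arrays. Over all tested probes, 2858 were called (12.6%), 946 of them higher in AD (4.15% of the tested probes) and 1912 lower. The higher calls made up 33.1% of all calls, against 53.2% when the percentile was taken over the probes detected on every array and 17.1% with normexp background correction. The 3 AD arrays came from 1 scan, Sham replicates 1 and 2 from a second scan of the same day and Sham replicate 3 from a scan of another day, so scan and group cannot be told apart. With scan as a random block limma called 0 probes in either direction, with 3672 at an unadjusted p under 0.05.

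Of the 10 fast muscle genes, 3 were called higher in AD hippocampi (Cox6a2, Myh1 and Myl11) and 0 were called lower, where 4.15% of all tested probes were called higher. The mean of the AD arrays was above that of the Sham arrays for all 10 genes. The AD minus Sham difference on the log2 scale ran from 0.62 for Actn3 to 3.15 for Ckm among the genes detected in both groups, while Tnnt3, above background on no Sham array, has only a lower bound. The median was 1.34, also with Tnnt3 at its bound, against -0.01 over all tested probes. On 9 of the 11 probes, standing for 8 of the 10 genes, every AD level lay above every Sham level, which was so for 12.8% of all probes. Among these 9, the Tnnt3 probe and a dim probe of Myh2 were above background on no Sham array, so their Sham levels are not measured ones. When a fold change of 2 or more was asked for together with a limma p under 0.05 before adjustment, the kind of threshold the study's methods used, 7 of the 10 genes were higher in AD, against 1.25% of the tested probes. With the methods' t-test in place of limma these were 4 of the 10 genes and 0.764% of the tested probes. Both counts include Tnnt3, which entered the test through the AD arrays alone. AD replicate 3 was the highest of the 6 arrays for all 10 genes, while it was the highest for 17.9% of all probes.

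The start sites of the 3 called genes and of Acta1, the skeletal muscle actin, are shown because short sequences bound by muscle regulators are known from such regions. The 250 bases before each start are RefSeq sequence on GRCr8, written 5′ to 3′ on the gene's strand, and 9 of the 10 genes had an entry. Capitals mark CAGCTG, an E-box of the kind that MyoD family factors bind. They also mark TATAAA (the core of the sequence that positions the polymerase), the MEF2 consensus and the CArG box of serum response factor, each searched on both strands.
Myl11 (chr1:191260039-191260288, plus strand): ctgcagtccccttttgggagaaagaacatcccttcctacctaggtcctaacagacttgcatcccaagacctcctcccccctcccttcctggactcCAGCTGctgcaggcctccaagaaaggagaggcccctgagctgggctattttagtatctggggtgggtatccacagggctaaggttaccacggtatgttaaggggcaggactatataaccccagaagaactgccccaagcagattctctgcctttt
Myh1 (chr10:52384662-52384911, plus strand): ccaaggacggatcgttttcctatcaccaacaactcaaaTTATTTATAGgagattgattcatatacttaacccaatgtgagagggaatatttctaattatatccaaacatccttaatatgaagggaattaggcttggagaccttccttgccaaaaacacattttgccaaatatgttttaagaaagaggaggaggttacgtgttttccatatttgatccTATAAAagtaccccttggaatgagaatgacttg
Cox6a2 (chr1:192219717-192219966, minus strand): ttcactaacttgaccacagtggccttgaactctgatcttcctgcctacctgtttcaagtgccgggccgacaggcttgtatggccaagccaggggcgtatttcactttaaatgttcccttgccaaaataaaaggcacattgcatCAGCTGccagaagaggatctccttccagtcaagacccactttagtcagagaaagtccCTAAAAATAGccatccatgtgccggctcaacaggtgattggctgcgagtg
Acta1 (chr19:68784195-68784444, minus strand): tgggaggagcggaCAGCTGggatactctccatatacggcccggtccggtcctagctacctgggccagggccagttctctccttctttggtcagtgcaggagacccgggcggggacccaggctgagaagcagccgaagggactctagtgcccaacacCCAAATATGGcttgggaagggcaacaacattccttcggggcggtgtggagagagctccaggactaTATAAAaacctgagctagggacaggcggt
Positions are counted back from the start, with -1 as the last base shown. CAGCTG began at -155 in Myl11, -107 in Cox6a2 and -237 in Acta1. Across the 9 genes it was found upstream of 5 (Acta1, Atp2a1, Ckm, Cox6a2 and Myl11), and in 12.0% of all 33469 upstream regions of the same length. TATAAA was found upstream of 4 of the 9 genes (Acta1, Myh1, Myh2 and Tnni2) and in 12.9% of all regions. It began at -29 in Acta1 and at -33 in Myh1, and a further match in Myh1 at -209 lies inside its MEF2 match. The MEF2 consensus was found in Cox6a2 and Myh1 and in 2.96% of all regions, and the CArG box in Acta1 and in 1.50% of all regions. A match is a description of the letters and not a measured binding site.

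**Figure D1:**
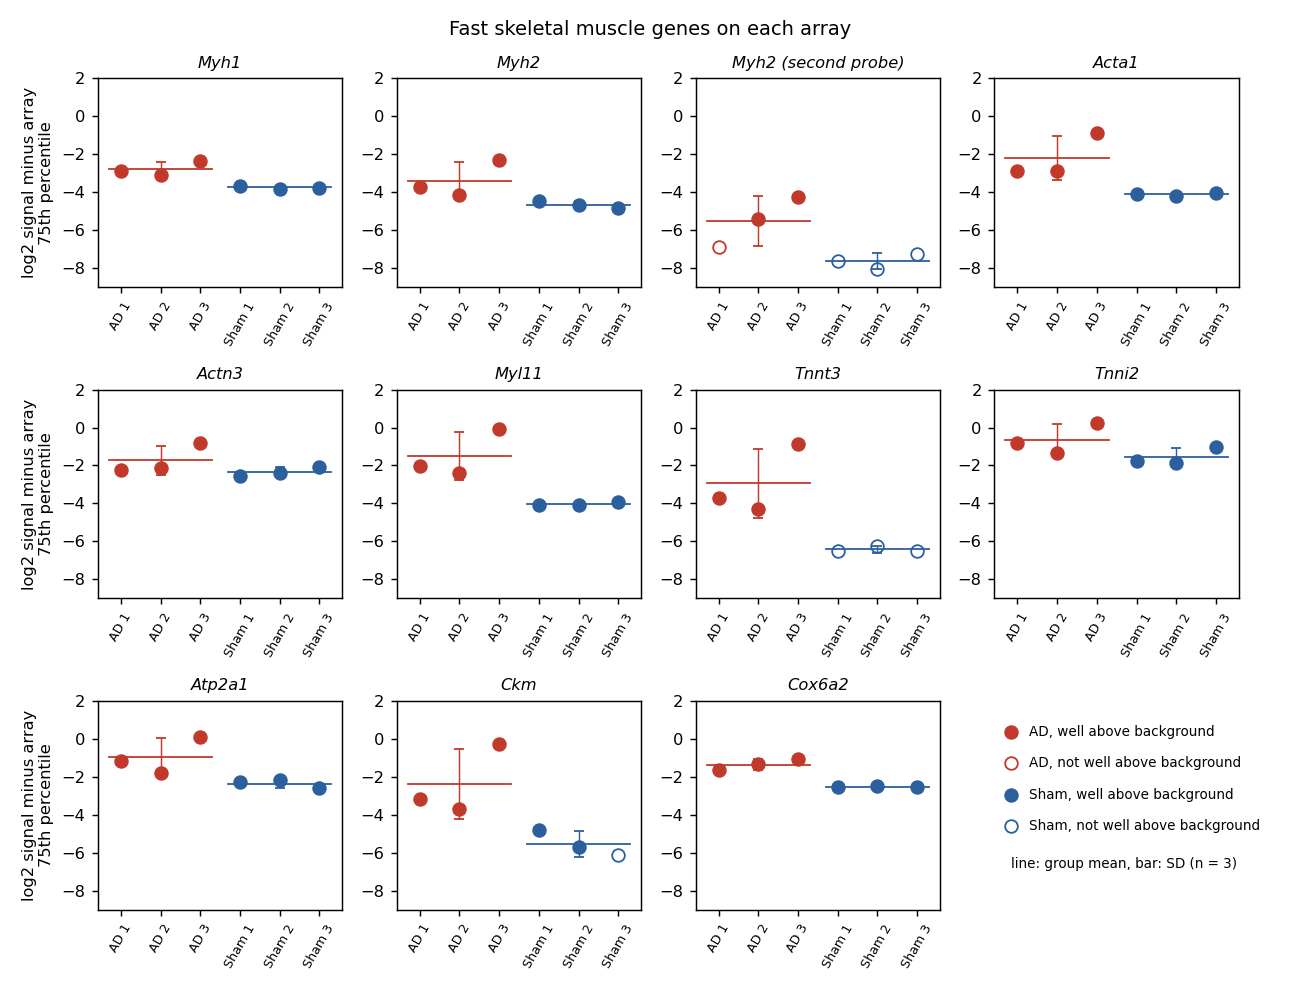
Level of each of the 11 probes on each array, as log2 processed signal minus the 75th percentile of the array, with AD arrays in red and Sham arrays in blue, group means as lines and SD as bars (n = 3). Open circles mark arrays on which the probe was not well above background, and AD replicate 3 is the highest array in every panel.

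The first 3 genes belong to the thick filament. Myl11, the regulatory light chain of fast fibres, had levels of -2.05, -2.41 and -0.065 on the AD arrays, against -4.10, -4.08 and -3.92 on the Sham arrays. The groups did not overlap, and the Sham arrays lay within a narrow band while the AD arrays did not. The difference was 2.53 ± 0.59 (SE, n = 3 per group, limma adjusted p = 0.0454), a 5.78-fold higher mean. Against the Sham mean the 3 AD arrays were 3.97-fold, 3.09-fold and 15.7-fold higher.

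Myh1 encodes the IIx myosin heavy chain, the motor of the fast fibres. Its levels were -2.89, -3.09 and -2.33 on the AD arrays, against -3.65, -3.80 and -3.77 on the Sham arrays. All AD arrays lay above all Sham arrays, with a difference of 0.97 ± 0.20 (limma adjusted p = 0.0350). Myh1 differed less than Myl11 but also varied less among AD arrays, with an SD of 0.39 against 1.26.

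Myh2, the IIa heavy chain, was measured by 2 probes that differed in brightness. The brighter one had levels of -3.74, -4.12 and -2.28 on the AD arrays, against -4.44, -4.68 and -4.82 on the Sham arrays. These groups did not overlap, but the difference of 1.27 ± 0.47 was not called (limma adjusted p = 0.125). The dimmer probe reached that mark on 2 AD arrays and on no Sham array, and was not tested. Its AD mean was at least 1.20-fold higher, with the lowest signal marked as above background on each Sham array standing for the Sham level, as for all such probes here. Heavy chain genes are near-identical copies of each other over long stretches, and how far a probe for one takes up transcript of another cannot be read from these files.

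On the thin filament, Acta1 had levels of -2.87, -2.88 and -0.87 on the AD arrays, against -4.07, -4.21 and -4.04 on the Sham arrays. AD replicates 1 and 2 were nearly equal and both were more than 1 log2 unit above every Sham array. The difference of 1.90 ± 0.55 was not called (limma adjusted p = 0.0714).

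Tnnt3, the fast troponin T that ties troponin to tropomyosin, was the one tested gene seen above background in AD alone. Its levels were -3.69, -4.29 and -0.85 on the AD arrays, against -6.53, -6.24 and -6.51 on the Sham arrays. The probe was detected (well above background) on all 3 AD arrays and on no Sham array, so it passed the filter through the AD arrays alone and was bound to differ. Its AD mean was at least 7.16-fold higher, and it was not called (limma adjusted p = 0.0509).

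Tnni2, the fast troponin I that holds the filament off at low calcium, was detected on all 6 arrays. Its levels were -0.81, -1.33 and 0.23 on the AD arrays, against -1.76, -1.86 and -1.03 on the Sham arrays. The groups overlapped, since Sham replicate 3 was higher than AD replicate 2. The difference of 0.91 ± 0.43 was not called (limma adjusted p = 0.208).

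Actn3, the alpha-actinin of fast fibre Z-discs, differed least. Its levels were -2.22, -2.14 and -0.83 on the AD arrays, against -2.57, -2.42 and -2.05 on the Sham arrays. AD replicate 3 alone stood clear of the Sham arrays, as the other AD arrays were both below Sham replicate 3. The difference was 0.62 ± 0.39 (limma adjusted p = 0.332).

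Atp2a1, the SERCA1 pump that returns calcium to the sarcoplasmic reticulum, had levels of -1.17, -1.82 and 0.11 on the AD arrays, against -2.26, -2.20 and -2.62 on the Sham arrays. The groups did not overlap, and AD replicate 2 came closest to the Sham arrays. The difference of 1.40 ± 0.48 was not called (limma adjusted p = 0.105).

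Ckm, which passes phosphate between creatine and ATP in muscle, had levels of -3.20, -3.72 and -0.26 on the AD arrays, against -4.80, -5.72 and -6.12 on the Sham arrays. It was detected on all AD arrays and on Sham replicates 1 and 2. Relative to the Sham mean the 3 AD arrays were 5.09-fold, 3.55-fold and 39.0-fold higher. The AD mean was 3.15 ± 0.93 higher on the log2 scale and was not called (limma adjusted p = 0.0754), with an SD of 1.86 among AD arrays.

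Cox6a2, the heart and skeletal muscle form of a subunit of cytochrome c oxidase, had the lowest adjusted p of the 10 genes. Its levels were -1.67, -1.36 and -1.09 on the AD arrays, against -2.53, -2.51 and -2.55 on the Sham arrays. The Sham arrays were almost equal (SD 0.02) and all AD arrays lay well above them, with a difference of 1.16 ± 0.16 (limma adjusted p = 0.0197). Unlike most of the others, Cox6a2 was lowest on AD replicate 1 rather than on AD replicate 2, which was the lowest AD array for 8 of the 10 genes.

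In mouse, Cox6a2 is also known from parvalbumin interneurons, which makes the genes of fast-spiking interneurons a second point of reference. All 5 of these genes were well above background on every array. Gad1, which makes GABA, was lower in AD (-0.81 ± 0.09, limma adjusted p = 0.0183), and the 4 others were not called. At an unadjusted limma p under 0.05, 3 of the 5 were lower (Gad1, Gad2 and Kcnc1) and 0 higher, beside 4225 of 22768 tested probes lower. Pvalb itself, named after its values were seen, had levels of 2.84, 2.89 and 2.96 on the AD arrays, against 3.06, 3.02 and 2.76 on the Sham arrays. The summed level of the 5 genes, in units of the 75th percentile signal, was 19.6 to 21.4 on AD arrays and 29.1 to 32.1 on Sham arrays. Gad1 was the brightest of the 5 on every array and weighs most in this sum. Differences of the others were -0.05 for Pvalb, -0.42 for Gad2, -0.40 for Kcnc1 and 0.17 for Syt2.

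**Figure D2:**
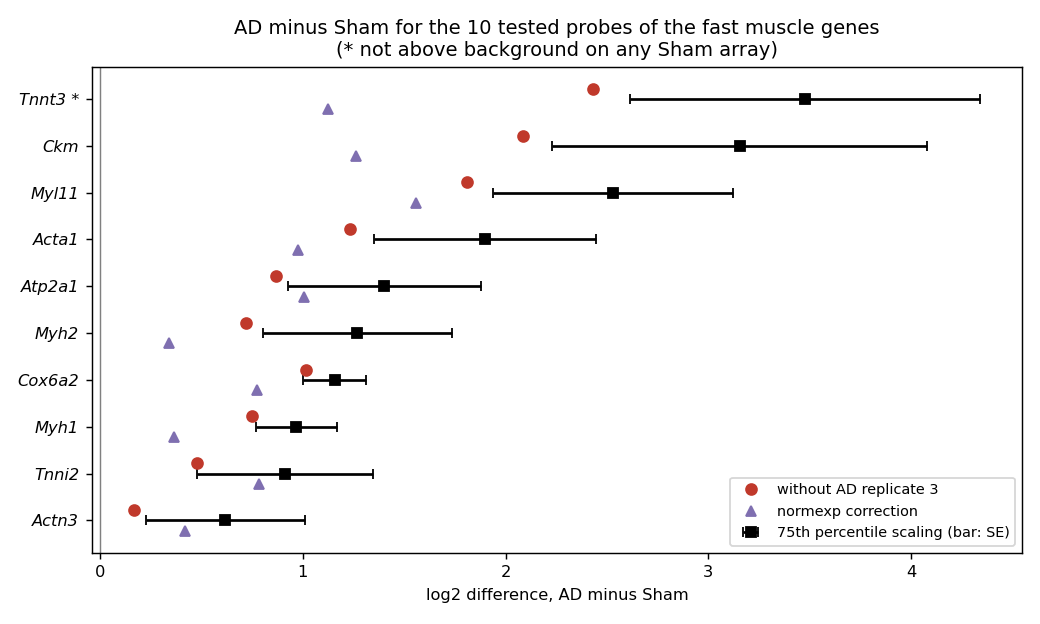
AD minus Sham difference on the log2 scale for the 10 tested probes, sorted by size, with squares and SE bars for the 75th percentile scaling, circles for the same fit without AD replicate 3 and triangles for normexp background correction. All points lie above 0, and for Ckm the circle is at 2.09 and the triangle at 1.26, while the fitted values of Tnnt3 (asterisk) rest on Sham signals not above background and are no measured difference.

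How far the differences depended on single arrays was read from refits. Leaving out AD replicate 3 gave a lowest difference of 0.17 for Actn3, with Myl11 at 1.81, Ckm at 2.09 and Acta1 at 1.23, all in the same direction. In that fit 0 of the 10 genes were called by limma and 2 probes were called in all. At an unadjusted p under 0.05, 8 of the genes were higher, including Tnnt3, beside 5298 of 22768 tested probes in either direction. Leaving out AD replicate 1, AD replicate 2, Sham replicate 1 or Sham replicate 2 also left 0 of the 10 genes called, and 0 probes were called in all in each of these fits. Without Sham replicate 3, the array of the other scan day, Cox6a2 alone was called (limma adjusted p = 0.0237), with Myh1 at 0.0518 and Myl11 at 0.0655.

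Normexp correction, which models the background and adds an offset of 50 to every signal, gave a smaller difference for each of the 10 genes. In that fit Cox6a2 was the only one called (0.78, limma adjusted p = 0.0239), and the differences were 1.56 for Myl11, 1.26 for Ckm and 0.36 for Myh1. The median over all tested probes was then -0.15. With scan as a random block Cox6a2 had an adjusted p of 0.179, Myh1 of 0.266 and Myl11 of 0.316. None of the 10 tested probes changed direction in any of the 17 or 18 alternatives that gave it a value. Cox6a2 passed the threshold in 11 of 18, Myh1 in 6 of 18, Tnnt3 in 2 of 17 and Myl11 in 4 of 18. Tnni2 and Atp2a1 each passed it in 1 of 18. The fit within the first scan day gave the same values as the fit without Sham replicate 3, so these alternatives are not separate.

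The rest of the muscle programme was followed through 5 further lists of skeletal muscle genes, of which 37 of 46 genes were on the array and 28 were tested. Here 1 gene was called higher in AD and 0 lower, beside 4.15% of all tested probes called higher. The AD mean was above the Sham mean for 29 of the 37 genes, with a median difference of 0.41. Both values take in genes that were above background on no Sham array, such as Tnni1 and Myl3. For 11 of the 37 every AD level lay above every Sham level, which was so for 12.8% of all probes. Among these 11, Myh4, Myoz1, Stac3 and Art1 were above background on no Sham array, so their Sham levels are not measured ones. AD replicate 3 was the highest array for 26 of the 37 and for 17.9% of all probes.

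Among the other sarcomere filament genes, Myh8, the perinatal heavy chain, was called. It had levels of -1.08, -1.46 and -0.61 on the AD arrays, against -2.25, -2.20 and -2.14 on the Sham arrays, a difference of 1.15 ± 0.21 (limma adjusted p = 0.0290). Myh4, the IIb heavy chain of the fastest fibres, was detected on every AD array and on no Sham array, so that it entered the test through the AD arrays alone. Its levels were -4.88, -5.39 and -1.24 on the AD arrays, against -7.78, -8.24 and -7.54 on the Sham arrays, and the AD mean was at least 3.86-fold higher and was not called (limma adjusted p = 0.0596). Of the 6 genes of this list 5 were higher on average, and 4, Myh4 among them, had an unadjusted p under 0.05 in that direction. That was so for 2899 of all 22768 tested probes.

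Of the Z-disc and M-band genes only Myom2 was tested, at 1.11 ± 0.71 (limma adjusted p = 0.336), and the other 5 on the array were too dim. Between 0 and 5 of these 6 genes were well above background on an AD array, and 0 or 1 on a Sham array. Casq1, which stores calcium in the sarcoplasmic reticulum, had the largest difference among the tested excitation-contraction coupling genes, at 0.74 ± 0.39 (limma adjusted p = 0.244), and Cacna1s, the voltage sensor, followed at 0.59 ± 0.42 (limma adjusted p = 0.382). Of the 6 tested genes of that list 0 were called by limma and 0 had an unadjusted p under 0.05. All 9 muscle metabolism genes were higher on average, and 0 were called by limma, with 2 (Pygm and Art1) at an unadjusted p under 0.05. Pgam2, the muscle phosphoglycerate mutase, had levels of -3.03, -4.14 and -0.95 on the AD arrays, against -4.20, -4.52 and -4.59 on the Sham arrays. Art1 was detected on the AD arrays alone, through which it entered the test, and was at least 2.74-fold higher without being called (limma adjusted p = 0.0655).

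Slow-twitch genes were split. Myh7, the slow heavy chain, had levels of -3.73, -4.78 and -1.86 on the AD arrays, against -4.27, -4.36 and -4.42 on the Sham arrays, so that only AD replicates 1 and 3 were above the Sham range. Tnnt1, the slow troponin T, had a difference of -0.79 ± 0.50 (limma adjusted p = 0.333). Of the 8 slow genes on the array 0 were called by limma, 0 had an unadjusted p under 0.05, 0 had all AD arrays above all Sham arrays, and their median difference was 0.42. That median includes Tnni1 and Myl3, which were not tested and were above background on no Sham array, so their differences are not measured ones. Some dim muscle genes, picked out after their values were seen, crossed the background on AD replicate 3 and on no other array: Tnni1, Myod1, Stac3, Myot and Myom1, which are 5 of the 53 genes in the skeletal, slow, cardiac and myogenic lists (2.61% of all probes did so).

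**Figure D3:**
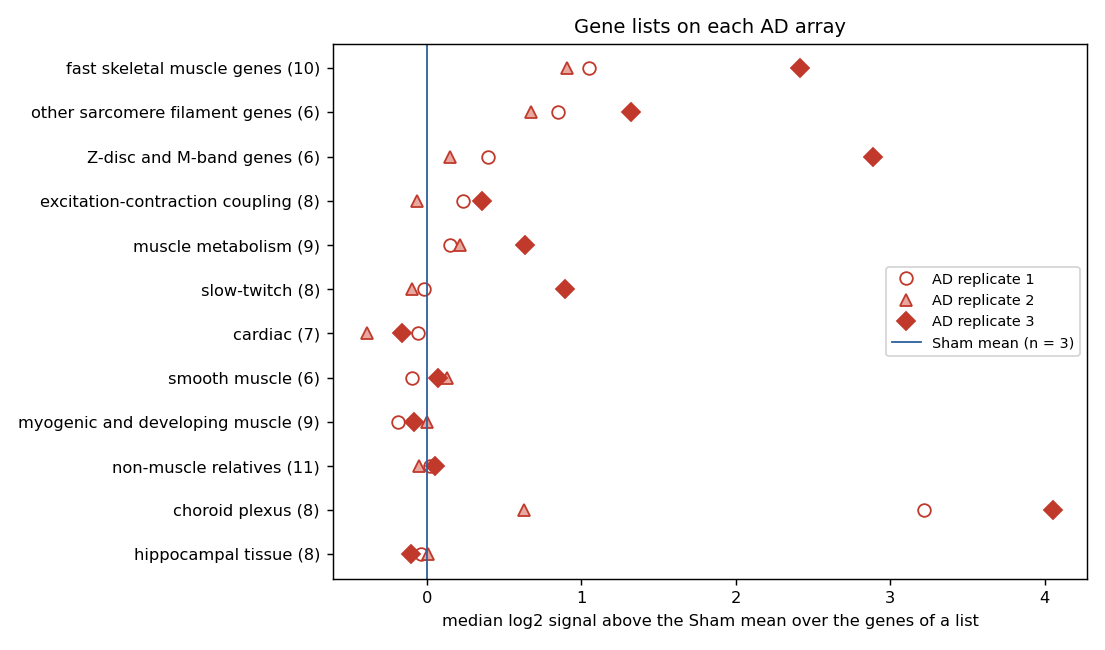
Median over the genes of a list of the log2 level above the Sham mean, for each of the 3 AD arrays, with the number of genes on the array in brackets and the Sham mean as a blue line. The fast muscle genes stand at 1.05, 0.91 and 2.42 on AD replicates 1, 2 and 3, and the medians of the cardiac, smooth muscle and myogenic lists stay between -0.39 and 0.13.

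The lists for other kinds of muscle had medians near 0. Of 7 cardiac genes, with a median difference of -0.06, Nppa, the atrial natriuretic peptide, was called lower (-0.77 ± 0.14, limma adjusted p = 0.0267), and 0 were called higher. The 6 smooth muscle genes had a median difference of 0.03 with 0 called by limma and 0 at an unadjusted p under 0.05, and Cnn1 was detected on no array. Among 9 myogenic and developing muscle genes 0 were called by limma, and 0 had an unadjusted p under 0.05. Chrng, Musk, Myf6 and Pax7 were detected on no array, while Myog, a regulator of muscle differentiation, had a difference of -1.35 ± 0.57 (limma adjusted p = 0.169).

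The non-muscle relatives that hippocampal cells use were detected on every array, and their 11 genes had a median difference of 0.01. Ckb, the brain creatine kinase, was 0.47 ± 0.11 higher in AD (limma adjusted p = 0.0485), and Myl12b, the non-muscle regulatory light chain, was 0.50 ± 0.10 higher (limma adjusted p = 0.0314). Actg1, cytoplasmic gamma actin, was lower in AD, with a difference of -0.59 ± 0.14 (limma adjusted p = 0.0487).

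Genes of other tissues around the brain also differed in level between these arrays, some higher and some lower on AD arrays, and their part in the muscle result was not tested. The summed level of the 10 fast muscle genes, in units of the 75th percentile signal, was 1.92 to 6.58 on AD arrays and 1.11 to 1.32 on Sham arrays. The 8 choroid plexus genes had medians of 3.22, 0.63 and 4.06 above the Sham mean on AD replicates 1, 2 and 3, with 0 called by limma and 5 higher at an unadjusted p under 0.05, and their summed level was 80.9 to 135 on AD arrays and 27.2 to 102 on Sham arrays. Ttr was the brightest of these 8 on every array and makes up most of that sum, with a difference of 0.99 ± 0.48 (limma adjusted p = 0.221). Of the 8 genes, 7 or 8 were detected on an AD array and 6 or 7 on a Sham array.

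Among the 8 bone genes, 2 were called higher in AD, while 3 of 8 were higher on average and the median difference was -0.06. Spp1, picked out after its values were seen, had a difference of -1.61 and was not called. Bglap, osteocalcin, was detected on all AD arrays and on 1 Sham array. It had levels of -1.45, -0.48 and -0.92 on the AD arrays, against -5.45, -5.00 and -6.07 on the Sham arrays, and was called higher (limma adjusted p = 0.0183). Its highest AD array was replicate 2, where most fast muscle genes were lowest. Ibsp, bone sialoprotein, was detected on the AD arrays alone, through which it entered the test, and was at least 4.02-fold higher (limma adjusted p = 0.0183). The summed level of the bone genes was 2.46 to 3.00 on AD arrays and 2.16 to 5.46 on Sham arrays, and Dmp1, an osteocyte marker, was detected on no array. Adipoq, which fat cells secrete, had levels of -0.57, -3.90 and 0.41 on the AD arrays, against -5.64, -3.90 and -3.88 on the Sham arrays, and was not called (limma adjusted p = 0.127). Of the 4 fat cell genes on the array 0 were called by limma, with 1 at an unadjusted p under 0.05, and Lep was detected on no array. The median difference of that list was -0.40, with Cfd, the adipsin gene, at -1.19 ± 0.70 (limma adjusted p = 0.302).

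Hbb, the beta globin of red cells, had levels of 1.70, 2.50 and -0.041 on the AD arrays, against 2.20, 4.56 and 5.18 on the Sham arrays, and was not called (limma adjusted p = 0.125). It was lowest on AD replicate 3, where the fast muscle genes were highest. The 4 erythroid genes had a median difference of -0.57 and a summed level of 6.46 to 13.1 on AD arrays and 11.4 to 67.8 on Sham arrays, and 1 was called higher, through a probe of Hba-a1 that was not its brighter one. Fmod, a tendon and connective tissue gene, had levels of 1.54, 0.025 and 2.33 on the AD arrays, against 0.28, -0.37 and -0.33 on the Sham arrays, and was not called (limma adjusted p = 0.150). Of the 6 connective tissue and tendon genes on the array 1 was higher on average, and the median difference was -0.32.

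A profile over the 6 arrays was formed as the median over the 10 genes of the level above the Sham mean. Its values were 1.05, 0.91 and 2.42 on the AD arrays, against 0.020, -0.055 and -0.025 on the Sham arrays. Each of the 10 genes is part of this profile and had a Pearson r with it of 0.88 for Actn3 to 0.998 for Acta1. Over 448 other named probes with a range of at least 2 log2 units, the 8 most like it were Myh4 (r = 0.997 over 6 arrays), Mybpc1 (0.981), Rbm47 (0.970), H19 (0.967), Pgam2 (0.953), Igfbp2 (0.950), Nrap (0.950) and Slco1a5 (0.950). Of these, Myh4, Mybpc1, Pgam2 and Nrap are muscle genes, Rbm47 is an RNA-binding protein, H19 is an imprinted long non-coding RNA, Igfbp2 binds insulin-like growth factors and Slco1a5 is an organic anion transporter. Myh4 and Rbm47 were above background on no Sham array and entered the comparison through the AD arrays alone. Their Sham levels are not measured ones. The correlations share the 6 arrays and their scaling with the profile.

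**Figure D4:**
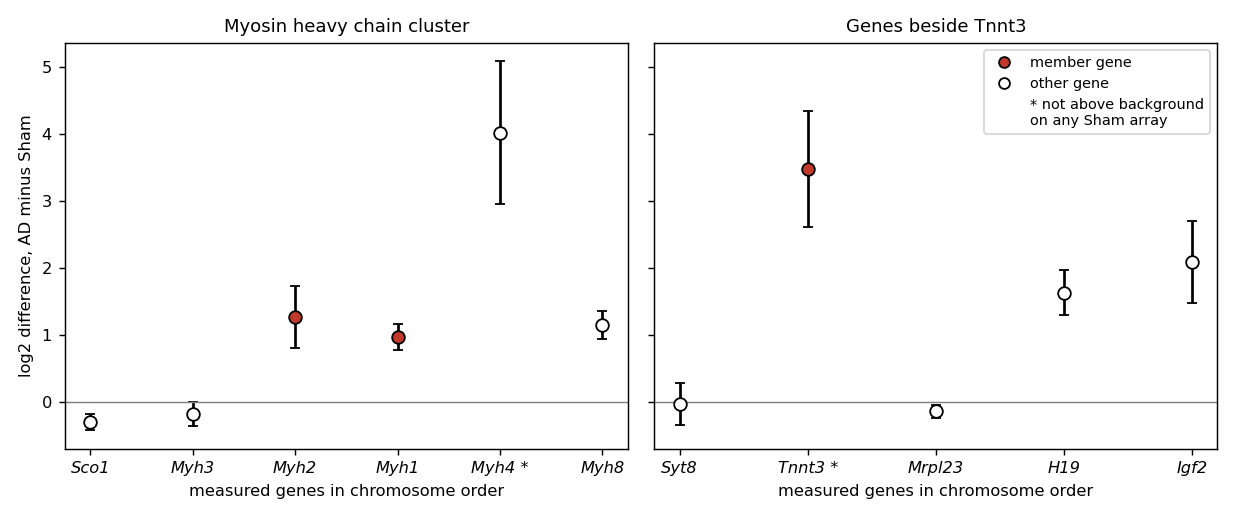
AD minus Sham difference on the log2 scale with SE bars for measured genes in chromosome order, at the myosin heavy chain genes on chromosome 10 and beside Tnnt3 on chromosome 1, with fast muscle genes filled in red. Myh3 and Sco1 lie slightly below 0 while Myh2, Myh1, Myh4 and Myh8 lie above it, and the fitted values of Myh4 and Tnnt3 (asterisks) rest on Sham signals not above background.

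Where the genes lie was looked up in the RefSeq gene order of GRCr8, and neighbours were added after values were seen. Chromosome 1 holds 7 of the 10 genes (Myl11, Cox6a2, Ckm, Tnnt3, Tnni2, Atp2a1 and Actn3), chromosome 10 holds Myh1 and Myh2, and chromosome 19 holds Acta1. The myosin heavy chain genes follow each other on chromosome 10 as Myh3, Myh2, Myh1, Myh4 and Myh8. Along that row the differences were -0.18 for Myh3, the embryonic chain, then 1.27 for Myh2 and 0.97 for Myh1. Myh4 follows with its bound of at least 3.86-fold, and Myh8 had a difference of 1.15. Sco1, the next measured gene outside the row, had a difference of -0.30 ± 0.12.

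Tnnt3 is followed on chromosome 1 by Mrpl23, H19 and Igf2. Mrpl23, a mitochondrial ribosomal protein, had a difference of -0.14 ± 0.10, H19 of 1.63 ± 0.34 (limma adjusted p = 0.0342) and Igf2, the growth factor, of 2.09 ± 0.62 (limma adjusted p = 0.0765). On the far side of Tnnt3, the next measured gene, Syt8, had a difference of -0.04 ± 0.32. Around all 10 genes, the 3 nearest protein-coding genes on each side were taken, with the non-coding H19 let in by name. Of these neighbours, H19 included, 35 were measured, with a median difference of -0.06. Of these, 32 were tested, 3 called higher (Tbc1d10b, H19 and the muscle gene Myh8) and 4 lower. Over all 22768 tested probes, 946 (4.15%) were called higher and 1912 lower. The 5 neighbours with a fitted difference over 1 were the muscle genes Myh4 and Myh8, with H19, Igf2 and Klc3. Klc3, a kinesin light chain gene beside Ckm, was at 1.13 ± 0.47 (limma adjusted p = 0.166).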

How the data were processed

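Each array's scanner file was deposited by the authors, made with Agilent Feature Extraction 11.0.1.1 according to the submitters' processing notes, and holds background-subtracted processed intensity on a linear scale with flags per spot (30367 probes; 42877 non-control spots per array). Outlier spots (400 to 559 per array) were left out, spots of a probe averaged, and log2 values taken minus each array's 75th percentile. Probes were named through their accession (59.3% of probes). Limma 3.58.1 (lmFit, eBayes) in R 4.3.3 tested AD minus Sham, and was tested on simulated data. For normexp, the median spot signal stood in for the mean signal, which the analysed columns do not hold. The number of arrays limits the precision.

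The authors also deposited a table of log2 values, used as an alternative. Its scaling is not stated, and all columns had a median of 6.56. Its AD-2 column matched the scanner values of AD replicate 3 (r = 0.994) and its AD-3 column those of AD replicate 2 (r = 0.999), so replicate numbers here are those of the scanner files.

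The members and lists were chosen with earlier results of these data known. Genes to name were taken from all members, from up to 4 called genes per other list (lowest adjusted p) or the 2 with the largest difference, and the 8 with the most similar profile. Alternatives were other scalings, background corrections, filters, array weights, scan and replicate blocks, left-out arrays and the methods' t-test. Not every listed gene is described, and 1 is not reported here.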

Additional observations from a re-analysis of the deposited data

How the results depend on the processing

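The count of called fast muscle genes (3) was 2 with quantile normalisation and with the authors' table, 4 with median scaling and 3 with the percentile over detected probes. It was 1 with normexp correction, 1 with no filter, 1 within the first scan day, 6 with array weights, 1 with the methods' t-test after Benjamini-Hochberg adjustment and 4 with that t-test at fold change 2, and it ranged from 0 to 1 when an array was left out. The count over all probes (2858) became 1649, 352, 4468, 8759, 1848 and 327 in those 6 settings in the same order, and 0 to 4468 with an array left out. The count for the other muscle lists (1) was 2 with the percentile over detected probes, 0 with normexp, no filter and the adjusted t-test, 3 within the first scan day and with the t-test at fold change 2, 8 with array weights, and 0 to 3 with an array left out. Probes without overlap numbered 9 of 11, including those of Tnnt3 and Myh2 above background on no Sham array, but 5 with normexp. With an array left out they numbered 9 to 11, a count that by its definition cannot fall when an array is dropped. The fit within the first scan day and the fit without Sham replicate 3 are the same fit. The causes were not tested. With scan as a random block limma called 0 probes, 0 fast muscle genes and 0 genes of the other muscle lists.

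With a replicate block limma called 0 probes, 0 fast muscle genes and 0 genes of the other muscle lists. At an unadjusted p under 0.05, 10 fast muscle genes were higher, including Tnnt3, beside 6482 of 22768 tested probes in either direction. The same-numbered samples share a number, and the labels used here name no other link between them. Their deviations correlated at 0.028, 0.072 and 0.14. AD replicate 1 correlated best with Sham replicate 2 (0.064), while AD replicates 2 and 3 correlated best with the Sham array of their own number. Whether same-numbered samples share a batch cannot be told from 3 such values.

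Small differences that turned sign were Tagln (-0.018 with normexp) and Myh11 (-0.047 with normexp, -0.0068 with array weights, -0.077 within the first scan day, and from -0.077 to 0.40 with an array left out). Over the alternatives Ckm, which is near background on Sham arrays, ranged from 1.26 to 3.82.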
